A study of Mus musculus with 6 samples.

Results

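The genes described here belong to the integrated stress response and were measured in mouse macrophages grown from bone marrow. They are Ddit4, Chac1, Ddit3, Atf3, Atf4, Atf5, Trib3, Asns, Sesn2 and Ppp1r15a, 10 of the 34755 genes on the array. They were taken by gene name, with every probe that carries it, which gave 11 probes because Atf4 has 2. The set was drawn up after the difference between AGO2 precipitates and control precipitates in these data was known, so that difference and the one from input are described here and support nothing. The Dicer KO cells came from LysM-Cre/Dicerflox/flox/Apoe–/– mice and the Dicer WT cells from LysM-Cre/Dicerwt/wt/Apoe–/– mice, in each case aged 6 to 8 weeks, and marrow was grown for 7 days with 10% serum and 10% L929-conditioned medium. LysM-Cre drives Cre recombinase in myeloid cells, and the WT cells carry it too. By the labels all 6 samples share the Apoe deficiency, so none is a fully wild-type macrophage. From each genotype RNA was taken after precipitation with a mouse monoclonal antibody to AGO2 (AGO2-RIP), after precipitation with control IgG (IgG-RIP), and before precipitation (input). AGO2 is the Argonaute protein that holds miRNAs and the transcripts they pair with, and Dicer is the enzyme that cuts miRNA precursors. Each of the 6 RNAs went on 1 array, and the sources used here do not give which samples share animals or a culture.

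The integrated stress response starts when a kinase phosphorylates the translation factor eIF2, which slows most protein synthesis but lets ribosomes reach the main reading frames of Atf4, Atf5, Ddit3 and Ppp1r15a mRNA. The transcription factor ATF4 then turns on genes for amino acid supply, redox balance and feedback, and lasting stress adds the death-linked factor CHOP, the product of Ddit3. In macrophages the response follows endoplasmic reticulum stress, lipid loading and lack of amino acids.

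With 1 array per group there are no replicates, so differences are given without a test. Values are log2 signals relative to the 75th percentile of their own array, differences are in log2 units, and 2-fold is used as a size. Spot noise, from probes printed repeatedly on an array, was 0.14 to 0.17 log2 (root mean square SD), or 0.20 to 0.24 for a difference between 2 arrays. It leaves out cells, precipitation and amplification. Spots well above background made up 37.6% to 46.3% of each array, and 12385 of the 34755 genes passed on all 6 arrays, as did 7 of the 10 stress genes. Chac1, Ddit3 and Trib3 were dim on at least 1 array. There "at least" marks a bound against the dim spot. All arrays lay on 1 slide, KO in row 1 and WT in row 2. In both rows input lay in column 2, IgG-RIP in column 3 and AGO2-RIP in column 4. Fraction and slide column therefore cannot be told apart. The labels give male mice, but Xist was above background on 0 of 3 KO and 3 of 3 WT arrays, and the Y-linked Ddx3y on 3 of 3 KO and 0 of 3 WT arrays. Genotype, slide row and sex therefore cannot be told apart in any KO and WT difference. Macrophage markers were above background in input, 8 of 8 in KO and 7 of 8 in WT. The exception was Lyz2, the gene at the LysM locus, which stood at 5.66 in KO input and was dim at -2.19 in WT input. The Dicer1 probe read -0.55 in KO input and 0.22 in WT input, 0.94 in KO AGO2-RIP and 0.93 in WT AGO2-RIP, and in IgG-RIP was dim in KO and at 0.18 in WT. The sources used here do not give the floxed exons, so that probe checks neither the deletion nor the labels. The Apoe probe was above background on 3 of 3 KO and 3 of 3 WT arrays, from -0.83 in WT AGO2-RIP to 1.20 in KO IgG-RIP. The Apoe deficiency rests on the labels and was not tested.

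By measured values and bounds, Ddit4 and Chac1 stood far above the other stress genes in their difference between AGO2-RIP and the other fractions. Sesn2 came next to them. Over IgG-RIP, Ddit3 in both genotypes and Trib3 in KO have only lower bounds, so their rank is not settled there. The 7 genes other than Ddit4, Chac1 and Sesn2 were lower in AGO2-RIP than in input in KO. The median of all measured genes was also below 0 there, at -0.24. For Atf4 and Asns the sign turned under another scaling. In KO cells 6 of the 10 genes were higher in AGO2-RIP by at least 2-fold over IgG-RIP and 0 were lower, beside 12.6% of all genes higher and 11.1% lower. In WT cells 5 were higher and 0 lower, beside 21.0% and 24.0% of all genes. Against input, 2 genes were at least 2-fold higher in the KO AGO2-RIP and 3 lower, beside 17.9% and 23.5% of all genes, and 3 were higher and 5 lower in the WT AGO2-RIP, beside 15.6% and 24.0%. These contrasts chose the genes, so nothing is read from the counts. Within a genotype the IgG-RIP and input comparisons use the same AGO2-RIP array. Ddit4 and Chac1 were at least 2-fold above both IgG-RIP and input in both genotypes, which 417 of 21113 genes were (1.98%), and the other 8 were not.

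**Figure D1:**
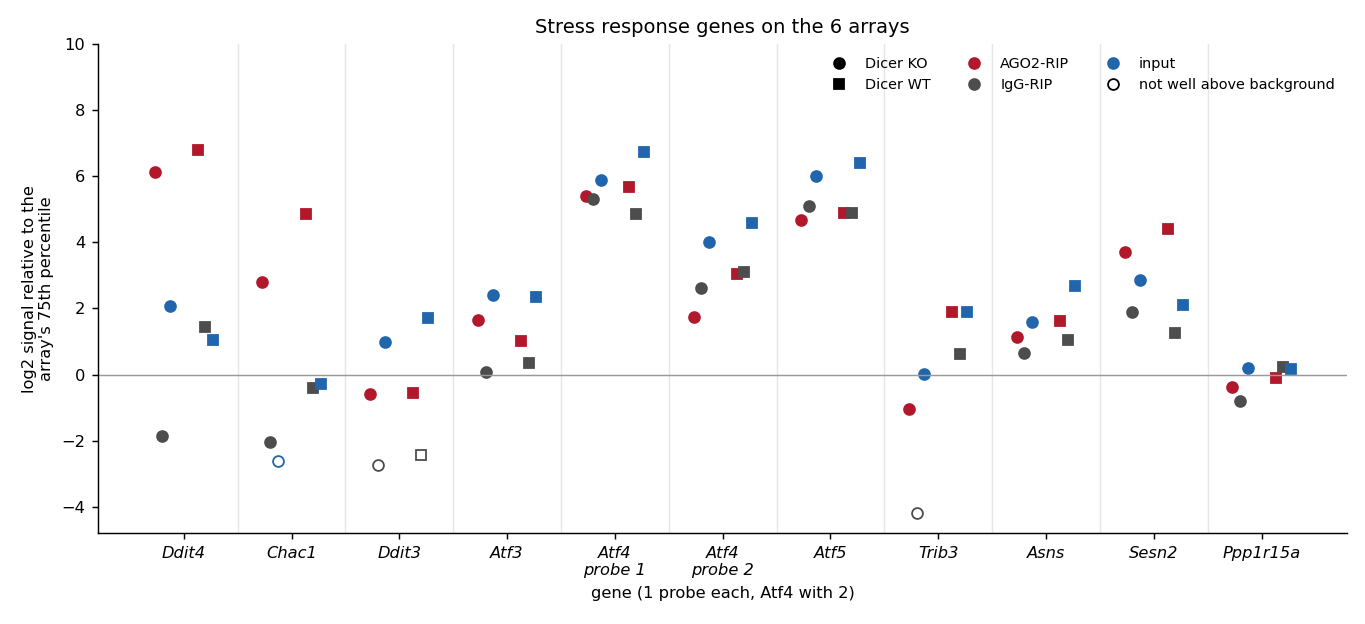
Log2 signal relative to the 75th percentile of the array (y) for the 11 probes of the 10 genes (x), with KO arrays as circles on the left of each gene and WT arrays as squares on the right; colours are RNA fractions and open symbols are spots not well above background. Each symbol is 1 array, levels of different probes are not comparable, and only Ddit4, Chac1 and Sesn2 have their AGO2-RIP symbol on top in both genotypes.

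Ddit4 encodes REDD1, a stress-induced inhibitor of the growth kinase complex mTORC1. It stood at 6.12 in KO AGO2-RIP, -1.85 in KO IgG-RIP and 2.06 in KO input, and at 6.79 in WT AGO2-RIP, 1.45 in WT IgG-RIP and 1.04 in WT input. In linear units the processed intensities were 7425, 21.2 and 388 on those KO arrays and 12199, 211 and 159 on those WT arrays. The AGO2-RIP spots were thus the brightest in both genotypes, and the KO IgG-RIP spot was the lowest of the 6 by far. AGO2-RIP exceeded IgG-RIP by 7.97 in KO (250-fold) and by 5.33 in WT (40.4-fold), and exceeded input by 4.06 in KO (16.7-fold) and by 5.75 in WT (53.8-fold). The difference from IgG-RIP ranked 1 of 15649 measured genes in KO and 8 of 15216 in WT, and the difference from input 43 of 15286 in KO and 2 of 14420 in WT. The KO value over IgG-RIP rests on a spot close to background: its Agilent error-model SD was 4.26 on a signal of 21.2, or 20.1%, and spots well above background on that array began at -2.15. With normexp background correction that KO difference was 6.25. Every one of the 7 alternative settings kept the Ddit4 differences from IgG-RIP and from input above 3.5 in both genotypes.

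The Ddit4 probe lies at chr10:59412486-59412545 on the minus strand (mm9, as in the array files). AGO2 finds its targets through the seed of a miRNA, bases 2 to 8, so the 11 probe sequences were searched for 7-base seed matches of 24 miRNAs. The list was drawn up for this work, from general knowledge of miRNAs found in macrophages, and says nothing of their level in these cells. Of 264 pairs of miRNA and probe, 1 held a match, where the shares among all 55681 probes give 1.24. It joins Ddit4 with miR-30a-5p, and 0.587% of all probes hold the same 7 bases. The miRNA (RefSeq, GRCm38.p6) is shown with its seed in capitals, and the part of the Ddit4 probe at chr10:59412500-59412529 (mm9, minus strand) with the matched bases in capitals.
mmu-miR-30a-5p: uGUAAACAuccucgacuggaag
Ddit4 probe window: catctagaaccTGTTTACatgaagttactc
The probe is a short stretch of the transcript, so these letters describe the probe and show no binding.

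Chac1 encodes an enzyme that breaks down glutathione, and it is a target of ATF4, ATF3 and CHOP. It stood at 2.80 in KO AGO2-RIP, at -2.04 in KO IgG-RIP and at -2.61 in KO input, where the spot was not well above background. In WT it stood at 4.85 in AGO2-RIP, -0.42 in IgG-RIP and -0.30 in input. As with Ddit4, the AGO2-RIP spot was the brightest in each genotype, while IgG-RIP and input lay close together in WT. AGO2-RIP exceeded IgG-RIP by 4.84 in KO (28.6-fold, rank 7) and by 5.27 in WT (38.7-fold, rank 11). It exceeded input by at least 5.23 in KO (at least 37.6-fold) and by 5.15 in WT (35.5-fold, rank 6). In KO the input spot was dim and the IgG-RIP spot close to background, with a signal of 18.6 and an error-model SD of 22.3%. With normexp they were 3.03 over IgG-RIP and at least 3.21 over input. Its probe lies at chr2:119179990-119180049 on the plus strand (mm9).

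The promoters of both genes are shown because ATF4 acts through a C/EBP-ATF response element, searched here as TGATGNAA on both strands. Each run is the 250 bases before the transcription start (RefSeq, GRCm38.p6), with matches in capitals.
Ddit4 promoter, chr10:59951771-59952020, minus strand: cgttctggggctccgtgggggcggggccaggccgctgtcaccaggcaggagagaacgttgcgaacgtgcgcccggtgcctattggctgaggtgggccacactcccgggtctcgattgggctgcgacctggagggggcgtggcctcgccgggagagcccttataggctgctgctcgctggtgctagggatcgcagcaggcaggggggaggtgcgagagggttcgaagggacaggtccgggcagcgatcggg
Chac1 promoter, chr2:119350992-119351241, plus strand: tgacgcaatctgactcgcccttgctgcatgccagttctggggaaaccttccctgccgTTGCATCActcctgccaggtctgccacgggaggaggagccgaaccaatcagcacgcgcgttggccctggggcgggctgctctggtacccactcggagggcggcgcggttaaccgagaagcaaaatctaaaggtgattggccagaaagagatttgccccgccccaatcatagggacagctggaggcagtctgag
In windows that run to 50 bases past the start, 4 of the 11 promoters of the 10 genes held the element, against 3.97% of 32851 promoters searched. They were those of Chac1, Atf3, Trib3 and Asns, with the match starting at -193, -110, 15 and -23 from the start. It lay on the strand of the gene in Asns and on the opposite strand in the others. The 30 bases around the other 3 matches are as follows.
Atf3, chr1:191183425-191183454, minus strand: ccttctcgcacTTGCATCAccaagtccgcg
Trib3, chr2:152344028-152344057, minus strand: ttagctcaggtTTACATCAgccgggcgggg
Asns, chr6:7693214-7693243, minus strand: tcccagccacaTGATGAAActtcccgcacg
The full cyclic AMP response element, TGACGTCA, which ATF-family factors can also bind, occurred in 1 of the 11 promoters, that of Ppp1r15a, against 1.79% of promoters.
Ppp1r15a, chr7:45526262-45526291, minus strand: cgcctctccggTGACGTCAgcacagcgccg
A match describes letters in a window and shows neither a site in use nor its absence elsewhere. Of the genes with AGO2-RIP as their highest fraction in both genotypes, Chac1 held TGATGNAA in this window, and Ddit4 and Sesn2 did not.

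Sesn2 encodes sestrin 2, a leucine-binding protein that restrains mTORC1 through the GATOR complexes. It stood at 3.70 in KO AGO2-RIP, 1.88 in KO IgG-RIP and 2.86 in KO input, and at 4.39 in WT AGO2-RIP, 1.26 in WT IgG-RIP and 2.10 in WT input. AGO2-RIP was highest and IgG-RIP lowest in each genotype, and all 6 spots were well above background. AGO2-RIP exceeded IgG-RIP by 1.82 in KO (3.52-fold) and by 3.14 in WT (8.79-fold). It exceeded input by 0.84 in KO (1.79-fold) and by 2.30 in WT (4.91-fold). The distance from input in KO was thus under 2-fold under the main scaling and ran from 0.34 to 1.40 over the alternatives.

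Ddit3 and Atf3 encode stress-induced bZIP transcription factors, CHOP and ATF3. Ddit3 stood at -0.59 in KO AGO2-RIP, at a dim -2.73 in KO IgG-RIP and at 1.00 in KO input. In WT it stood at -0.56 in AGO2-RIP, at a dim -2.43 in IgG-RIP and at 1.72 in input. Input was its highest fraction in each genotype, with AGO2-RIP between input and IgG-RIP. AGO2-RIP exceeded IgG-RIP by at least 1.56 in KO and at least 1.47 in WT, and lay below input by -1.59 in KO and by -2.28 in WT. Its probe spans 304 bases of genome, so its 60 bases are not contiguous there.

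Atf3 followed the same order of fractions. It stood at 1.66 in KO AGO2-RIP, 0.07 in KO IgG-RIP and 2.42 in KO input, and at 1.02 in WT AGO2-RIP, 0.35 in WT IgG-RIP and 2.35 in WT input. AGO2-RIP minus IgG-RIP was 1.59 in KO and 0.67 in WT, and AGO2-RIP minus input was -0.76 in KO and -1.33 in WT.

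Atf4 and Atf5 encode the bZIP factors whose translation the response switches on. Atf4 stood, by its brighter probe, at 5.39 in KO AGO2-RIP, 5.30 in KO IgG-RIP and 5.90 in KO input, and at 5.69 in WT AGO2-RIP, 4.85 in WT IgG-RIP and 6.73 in WT input. Input was again highest, and in KO the AGO2-RIP and IgG-RIP spots differed by 0.09, less than the spot noise. AGO2-RIP minus IgG-RIP was 0.84 in WT, and AGO2-RIP minus input was -0.51 in KO and -1.05 in WT. The second Atf4 probe gave AGO2-RIP minus IgG-RIP of -0.87 in KO and -0.06 in WT, and AGO2-RIP minus input of -2.26 in KO and -1.56 in WT. The probes share a sign against input and not against IgG-RIP, and the KO sign against input turned under another scaling, with a range of -1.38 to 0.34.

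Atf5 stood at 4.68 in KO AGO2-RIP, 5.09 in KO IgG-RIP and 6.00 in KO input, and at 4.90 in WT AGO2-RIP, 4.88 in WT IgG-RIP and 6.40 in WT input. Its precipitates lay close together and below input. AGO2-RIP minus IgG-RIP was -0.41 in KO and 0.01 in WT, with a WT range of -0.44 to 0.31 over the alternatives, and AGO2-RIP minus input was -1.32 in KO and -1.51 in WT.

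Trib3 encodes a pseudokinase induced by ATF4 and CHOP that feeds back on the response. It stood at -1.06 in KO AGO2-RIP, at a dim -4.17 in KO IgG-RIP and at 0.03 in KO input, and at 1.90 in WT AGO2-RIP, 0.63 in WT IgG-RIP and 1.90 in WT input. KO was below WT in every fraction, and IgG-RIP was the lowest fraction in each genotype. AGO2-RIP exceeded IgG-RIP by at least 1.09 in KO and by 1.27 in WT. AGO2-RIP minus input was -1.08 in KO and 0.00 in WT, where the sign depended on the scaling.

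Asns encodes asparagine synthetase, an amino acid response enzyme under ATF4. It stood at 1.13 in KO AGO2-RIP, 0.64 in KO IgG-RIP and 1.59 in KO input, and at 1.63 in WT AGO2-RIP, 1.06 in WT IgG-RIP and 2.68 in WT input. Its order of fractions was that of Atf3, with smaller steps: AGO2-RIP minus IgG-RIP was 0.49 in KO and 0.57 in WT, and AGO2-RIP minus input was -0.46 in KO and -1.05 in WT.

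Ppp1r15a encodes GADD34, the subunit that brings a phosphatase to eIF2 and ends the response. It stood at -0.38 in KO AGO2-RIP, -0.81 in KO IgG-RIP and 0.19 in KO input, and at -0.11 in WT AGO2-RIP, 0.24 in WT IgG-RIP and 0.18 in WT input. The fractions did not keep their order between genotypes. AGO2-RIP minus IgG-RIP was 0.43 in KO and -0.34 in WT, and AGO2-RIP minus input was -0.57 in KO and -0.29 in WT.

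**Figure D2:**
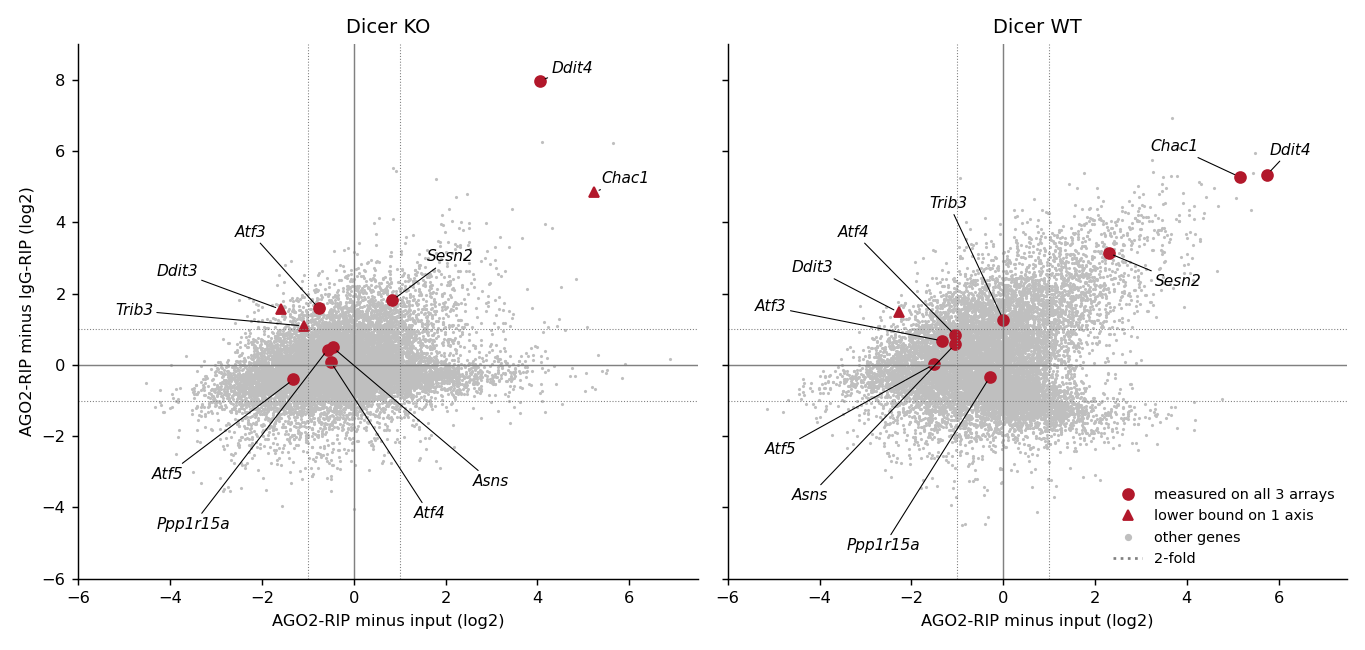
AGO2-RIP minus input (x) against AGO2-RIP minus IgG-RIP (y), in log2 units, for the 10 genes (red) and for the genes above background on all 3 arrays of a genotype (grey, 14023 in KO on the left and 13133 in WT on the right); triangles are bounds and dotted lines mark 2-fold. Both axes contain the same AGO2-RIP array, Ddit4 and Chac1 sit at the upper right in both panels, and Sesn2 lies at 0.84 on the x axis in KO and at 2.30 in WT.

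In the set as a whole, AGO2-RIP minus IgG-RIP had a median of 1.32 in KO, beside -0.19 over all measured genes, and of 1.05 in WT, beside -0.24. Medians of the 10 genes include bounds, and those over all genes do not. The 10 genes ran from -0.41 (Atf5) to 7.97 (Ddit4) in KO and from -0.34 (Ppp1r15a) to 5.33 (Ddit4) in WT. AGO2-RIP minus input had a median of -0.54 in KO, beside -0.24 over all genes, and of -0.67 in WT, beside -0.24. Apart from Ddit4, Chac1 and Sesn2, the other 7 genes lay below input in the KO AGO2-RIP, and 6 of them in the WT AGO2-RIP, with Trib3 at 0.00. Under another scaling the sign turned for Atf4 and Asns in KO and for Ppp1r15a in WT.

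The control precipitate was set against input as well. The genes were chosen with AGO2-RIP over IgG-RIP known, and a low IgG-RIP signal raises that difference. The choice thus favours genes low in IgG-RIP, and nothing is read from the counts, medians and ranks of this paragraph. In KO 0 of the 10 genes were at least 2-fold higher in IgG-RIP than in input and 4 were lower, beside 21.6% and 26.7% of all genes. In WT 0 were higher and 6 lower, beside 22.8% and 32.4%. The counts depend on the scaling: 9 were lower in KO with median centring, 3 were lower in WT with quantile normalization, and 1 was higher and 3 lower in WT with the percentile over bright probes. Among genes above background on all arrays, 2 were lower in KO. Counts over all genes moved as well. The lower count in KO went from 4982 to 7302 with median centring and to 3859 with genes above background on all arrays. In WT it went from 6032 to 4951 with quantile normalization and to 3271 with the percentile over bright probes. The higher count in WT went from 4240 to 7604 with that percentile. The medians were -0.99 in KO, beside -0.26 over all genes, and -1.39 in WT, beside -0.45. Ddit3 gave the lowest WT value, at least 3.75 below input, and was at least 3.15 below it in KO. Atf3 stood at -2.35 in KO and -2.00 in WT, and Trib3 at least 2.18 below input in KO and at -1.26 in WT. Ddit4 was 3.91 below input in the KO IgG-RIP (15.0-fold, the 13th lowest of 14336 genes) and 0.41 above it in the WT IgG-RIP. Over the alternatives this ran from -4.39 to -2.34 in KO and from -0.17 to 1.17 in WT. KO minus WT of this quantity was past 2-fold upward for 14.7% and downward for 8.90% of 12552 genes, and Ddit4 stood at -4.32. Chac1 lay at least 0.40 above the dim input spot in the KO IgG-RIP and at -0.12 from input in the WT IgG-RIP.

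The input arrays show the stress genes before precipitation. In input 1 of the 10 genes was at least 2-fold higher in KO than in WT and 3 were lower, beside 1.35% and 2.94% of 16768 genes. With normexp 0 were higher and 1, Trib3, was lower, beside 52 and 93 of all genes, against 227 and 493 in the main setting. Ddit4 was the higher one, at 2.06 in KO input and 1.04 in WT input (2.03-fold, rank 139 of 14664), but its difference was under 2-fold with quantile normalization (0.93) and with normexp (0.87). Trib3 was 1.87 lower (3.65-fold, the 28th lowest), Asns 1.09 lower (2.13-fold) and Chac1 at least 2.14 lower (at least 4.41-fold) in KO input. With normexp Trib3 stood at -1.27 and Asns at -0.86, and with quantile normalization Asns stood at -0.94. The Chac1 value rests on a dim KO spot and was at least 0.81 with normexp. In bulk RNA, fewer cells that express a gene and less of its RNA per cell cannot be told apart.

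The other genes lay within 2-fold in input. Sesn2 was higher in KO by 0.76, and Atf4, Ddit3 and Atf5 were lower in KO by -0.84, -0.72 and -0.40. Atf3 and Ppp1r15a differed by 0.07 and 0.00, less than the spot noise. The median of the 10, with Chac1 at its bound, was -0.56, beside -0.08 over all measured genes. Markers of other cell types were at or near background on the inputs: in KO and WT input, 2 and 2 of 7 neutrophil markers, 1 and 0 of 4 T cell markers, 0 and 0 of 4 B cell markers and 1 and 0 of 6 fibroblast markers were above background. The summed scaled signal of the same lists in KO and WT input was 1.04 and 1.69 for neutrophils, 0.36 and 0.57 for T cells, 0.33 and 0.34 for B cells, and 0.67 and 0.64 for fibroblasts. The part of sex, slide row and the difference in Lyz2 in these values was not tested.

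Between the AGO2-RIP arrays, 0 stress genes were at least 2-fold higher in KO than in WT and 2 were lower, beside 8.77% and 11.2% of all genes. These were Trib3, lower in KO by -2.95 (7.75-fold, the 9th lowest of 16394), and Chac1, lower by -2.06. Both were also lower in KO input, Chac1 there by a bound. The input pair is other arrays, but genotype, slide row and sex cannot be told apart in it either. Ddit4 and Sesn2 were lower in KO AGO2-RIP by -0.67 and -0.69, while both were higher in KO input. Between the IgG-RIP arrays 9 of the genes could be compared, of which 0 were at least 2-fold higher in KO and 4 lower, beside 12.8% and 12.0% of all genes. They were Ddit4 at -3.30 (9.85-fold), Trib3 at least 2.78 below WT, Chac1 at -1.62 and Ppp1r15a at -1.05. With normexp 2 stayed past 2-fold, Ddit4 at -1.74 and Trib3 at least 1.23 below WT, while Chac1 stood at -0.60 and Ppp1r15a at -0.50. Over all genes the lower count there was 736 with normexp and 2243 in the main setting. With median centring Ppp1r15a stood at -0.93. Ddit3 was dim on both IgG-RIP arrays.

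**Figure D3:**
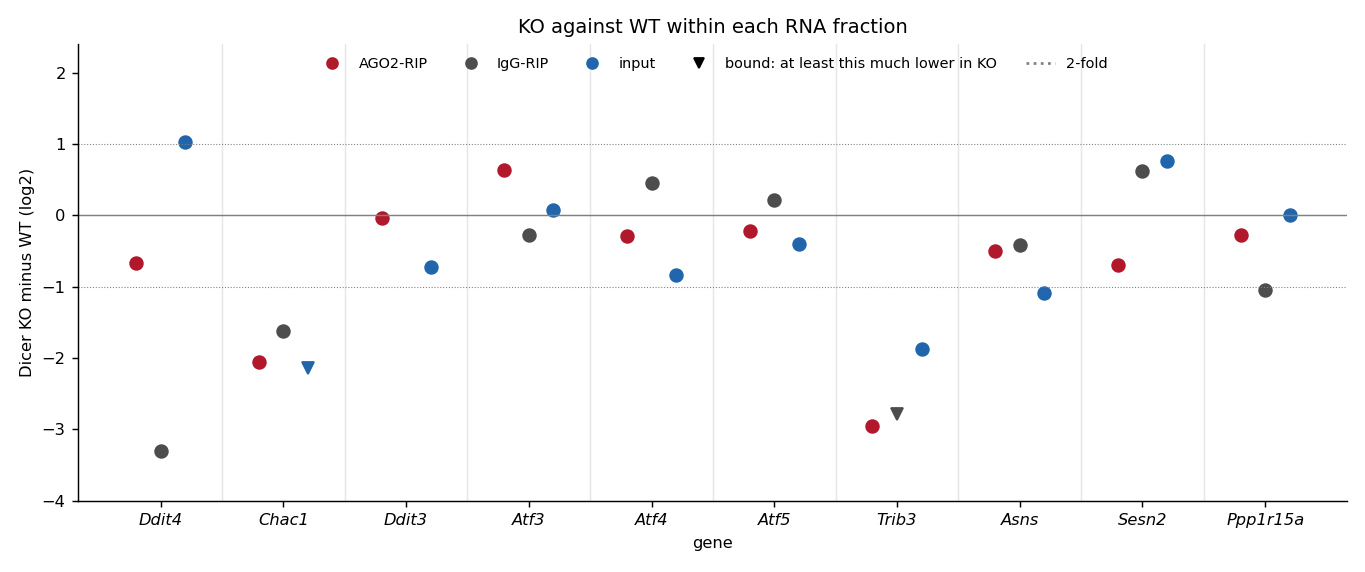
KO minus WT in log2 units (y) for each of the 10 genes (x) within AGO2-RIP, IgG-RIP and input, 1 array per genotype and fraction; triangles are bounds and dotted lines mark 2-fold. Trib3, Chac1 and Asns lie below 0 in all fractions, and Ddit4 is at -3.30 in IgG-RIP and at 1.02 in input.

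The size of the AGO2-RIP differences also varied with genotype. For Ddit4, KO minus WT was 2.63 for AGO2-RIP over IgG-RIP and -1.69 for AGO2-RIP over input. The value of 2.63 rests on the KO IgG-RIP spot close to background, and its KO term of 7.97 was 6.25 with normexp. The signs oppose, and the Ddit4 signal was lower in the KO IgG-RIP and higher in the KO input than in WT. For Sesn2 the same quantities were -1.32 and -1.45, so that KO lay below WT by either reference, though both quantities use the same AGO2-RIP arrays. At least 2-fold, the first quantity was higher in KO for 16.5% and lower for 20.2% of 14054 genes, and the second higher for 6.98% and lower for 11.6% of 13868. Chac1 gave -0.44 over IgG-RIP, within 2-fold, and has only a bound over input in KO.

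To set these values beside the rest of the pathway, 4 further groups of genes were used. They were drawn up for this work, with earlier results of these data known. Other ATF4 targets (38 genes for amino acid transport and synthesis, aminoacyl-tRNA synthetases and regulators) had as their highest measured values 2.66 over IgG-RIP in KO and 2.70 in WT, and 1.42 over input in KO and 1.79 in WT, below Ddit4 and Chac1. The stress genes were chosen with AGO2-RIP over IgG-RIP known, so nothing is read from that order. Of 31 ATF4 targets that could be compared, in AGO2-RIP over IgG-RIP 7 were at least 2-fold higher and 5 lower in KO, and 12 higher and 2 lower in WT. The shares over all genes were 12.6% and 11.1% in KO and 21.0% and 24.0% in WT. Medians were -0.03 in KO and 0.01 in WT, beside -0.19 and -0.24. The highest measured in KO were Jdp2, a bZIP repressor, at 2.66 in KO and 0.89 in WT, and Psat1, of serine synthesis, at 2.10 in KO and -0.01 in WT. The lowest measured in KO were Shmt2, the mitochondrial serine hydroxymethyltransferase, at -2.74 in KO and -0.76 in WT, and Psph, the last enzyme of serine synthesis, at -2.07 in KO and -0.27 in WT. Slc7a5 and Cebpg, each dim on 1 of these KO arrays, have bounds past 2-fold above IgG-RIP for Slc7a5 and of at least 2.55 below it for Cebpg.

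In input, 0 of 31 ATF4 targets were at least 2-fold higher in KO than in WT and 3 were lower, beside 1.35% and 2.94% of all genes, with a median of -0.30 beside -0.08. The 3, named after their values were seen, were the amino acid transporter Slc7a5 at -1.20, the serine synthesis enzyme Phgdh at -1.07 and the transcription factor Cebpb at -1.04. Between the AGO2-RIP arrays 0 of the ATF4 targets were higher in KO and 9 lower, beside 8.77% and 11.2% of all genes, with a median of -0.78 beside -0.03. Under the main scaling Trib3, Asns and Chac1 stood on the same side in input as these 3, past 2-fold, and Atf4, Ddit3 and Atf5 within it. Ddit4 and Sesn2 stood on the other side, higher in KO input by 1.02 and 0.76. Atf3 and Ppp1r15a differed by 0.07 and 0.00.

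The genes that set the state of eIF2 (18 kinases, eIF2 and eIF2B subunits and phosphatase subunits) were 5 higher and 0 lower over IgG-RIP in the KO AGO2-RIP, and 5 higher and 2 lower in WT, beside 12.6% and 11.1% of all genes in KO and 21.0% and 24.0% in WT. Against input they were 0 higher and 6 lower in KO and 1 higher and 8 lower in WT, beside 17.9% and 23.5% in KO and 15.6% and 24.0% in WT. The highest in KO were Ppp1r15b, the constitutive counterpart of Ppp1r15a, at 1.82 in KO and at least 2.72 in WT, and Eif2b2, a subunit of the eIF2 exchange factor, at 1.60 in KO and 1.61 in WT. The lowest were the phosphatase catalytic subunit Ppp1ca, at -0.69 in KO and 0.43 in WT, and Gcn1, which activates the kinase GCN2, at -0.39 in KO and -1.88 in WT. Between KO input and WT input 0 of these 18 genes differed 2-fold either way.

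Genes of the other arms of the unfolded protein response (23 chaperones and members of the ATF6 and IRE1 arms) were 0 higher and 0 lower over IgG-RIP in KO, beside 12.6% and 11.1% of all genes, and 6 higher and 0 lower in WT, beside 21.0% and 24.0%. Against input they were 0 higher and 8 lower in KO, beside 17.9% and 23.5%, and 3 higher and 10 lower in WT, beside 15.6% and 24.0%. In KO input against WT input 0 of 23 were at least 2-fold higher and 0 lower, beside 1.35% and 2.94%. Pdia4 (0.82) and Ern1 (0.75), a disulfide isomerase and the IRE1 sensor, were the highest of those measured on both KO arrays, with -0.26 and 0.73 in WT, while Mbtps2, dim in the KO IgG-RIP, was at least 0.90 above it. Hyou1 (-0.68) and Hsp90b1 (-0.56), both chaperones, were the lowest in KO, with -0.23 and -0.48 in WT. Partners of Ddit4, Sesn2 and Chac1 in mTORC1 control and glutathione metabolism (18 genes) were 5 higher and 0 lower of 15 over IgG-RIP in KO, beside 12.6% and 11.1% of all genes, and 5 higher and 0 lower of 14 in WT, beside 21.0% and 24.0%. Ggct, another gamma-glutamylcyclotransferase, was the highest of those measured on both KO arrays, at 1.95 in KO and 1.68 in WT, but lay below input by -0.72 in KO and by -1.36 in WT. Sesn3 and Tsc2, dim in the KO IgG-RIP, have bounds there of at least 3.26 and at least 1.44. Sesn1, a paralog of Sesn2, stood at 1.30 in KO and 1.94 in WT, and was above input by 0.68 in KO and by 1.52 in WT. The lowest in KO were glutathione synthetase Gss, at -0.72 in KO and 0.32 in WT, and Mtor itself, at -0.63 in KO and at least 1.98 in WT.

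**Figure D4:**
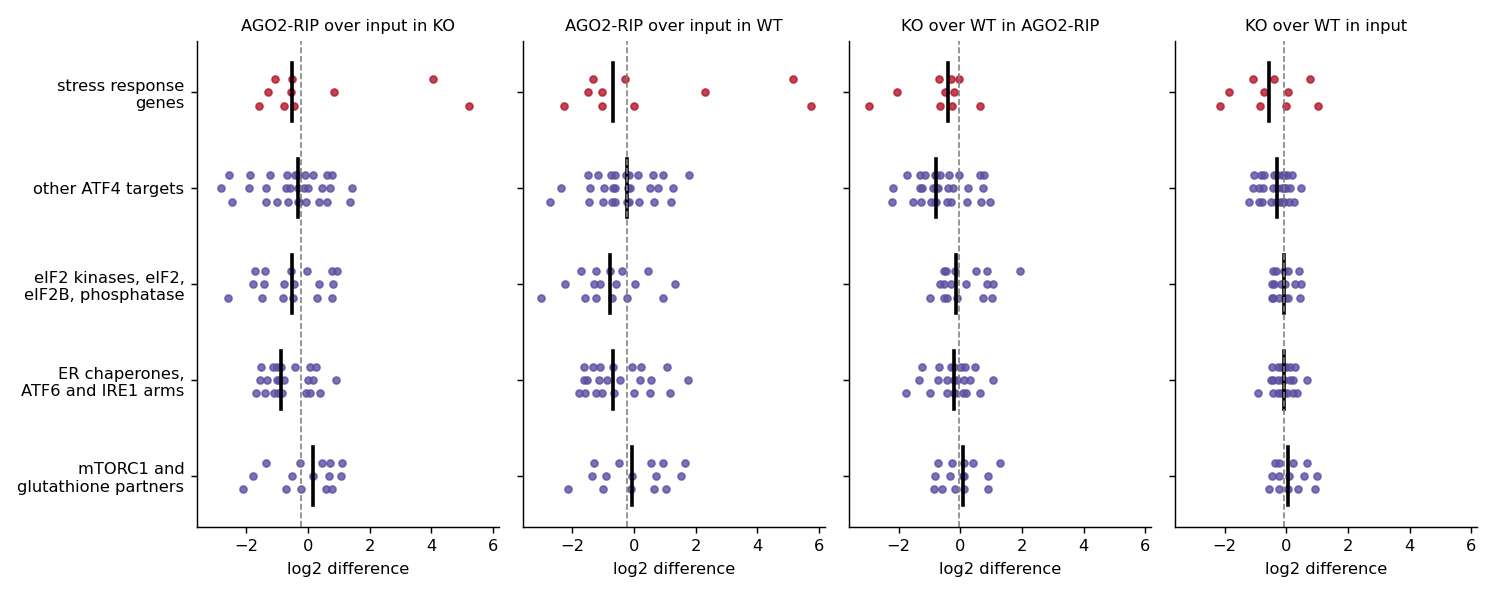
Log2 differences (x) for the 10 stress response genes (red) and the 4 related groups (purple, rows), in 4 comparisons (panels); each point is a gene, measured or at its bound, black bars are group medians and dashed lines the median of all measured genes. Points above 4 occur in the stress response row alone in the panels over input, and are Ddit4 and Chac1. The stress genes were chosen with AGO2-RIP over IgG-RIP known, so nothing is read from this.

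Over the 6 arrays, the genes with the profile most like that of Ddit4 were searched among 8563 named genes above background on all arrays. Likeness was the root mean square difference of the log2 values after each gene's own mean was subtracted, and the median over all genes was 3.09. The nearest were Zc3hav1l (0.65), Tnfsf9 (1.02), Klhdc3 (1.17), Cd151 (1.22) and Sertad3 (1.26). Chac1 lay at 1.43 and Sesn2 at 2.13 from Ddit4, and the other 7 stress genes at 2.63 to 3.30, near the median of all genes. For Chac1, which is dim on 1 array, the nearest were Tnfsf9 (0.56), Zc3hav1l (0.97), Klhdc3 (1.00), Dusp1 (1.06) and Lpar6 (1.06), so that 3 of the 5 genes were on both lists. All of these genes were chosen by the same 6 arrays that show their likeness. Zc3hav1l exceeded IgG-RIP by 6.25 in KO and 4.34 in WT and exceeded input by 4.09 in KO and 5.40 in WT. Tnfsf9, which encodes a ligand of the TNF family, exceeded IgG-RIP by 6.22 in KO and 5.94 in WT and input by 5.64 in KO and 5.48 in WT.

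**Figure D5:**
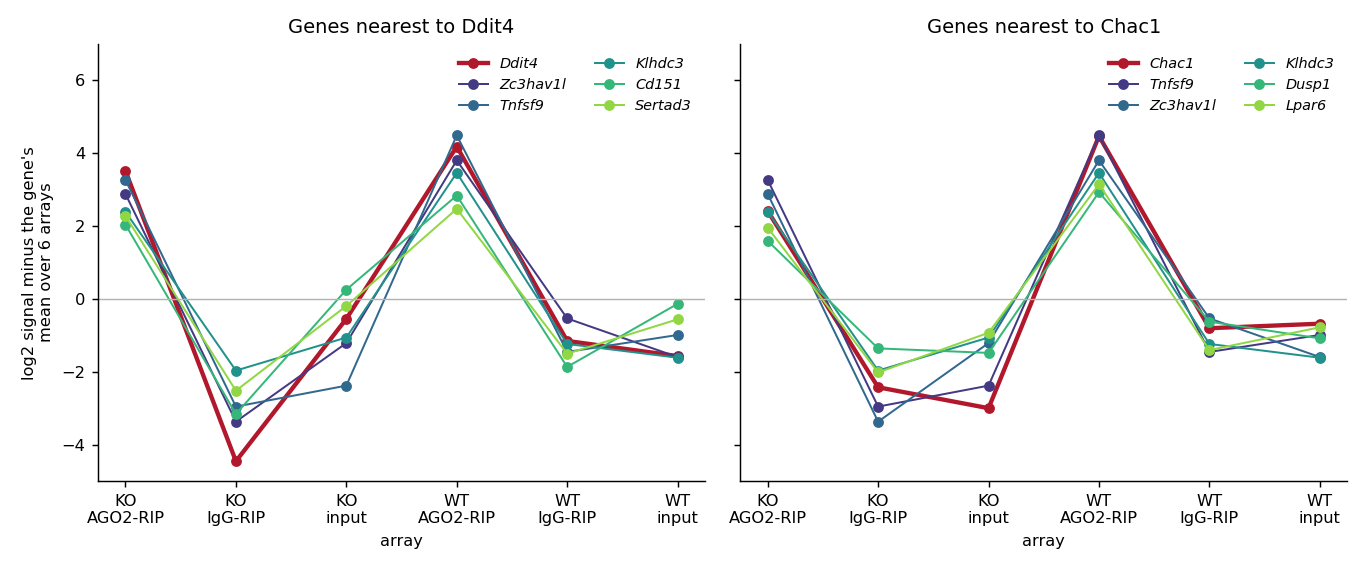
Log2 signal minus the gene's own mean (y) on the 6 arrays (x, KO left of WT) for Ddit4 with its 5 nearest genes (left panel) and Chac1 with its 5 nearest genes (right panel); each point is 1 array and lines join the points of a gene. The AGO2-RIP arrays are the highest points of every line drawn, and Ddit4 has the lowest KO IgG-RIP point of its panel.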

How the data were processed

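RNA of 6 samples (3 fractions from KO and WT macrophages) was hybridised to 1-colour Cy3 arrays. Per the labels' protocols, cDNA was made and pre-amplified from each RNA, and 500 ng per sample was labelled. Every array thus got the same cDNA mass whatever the yield of the precipitation, and values are relative abundances. The deposited values are intensities in linear units from Agilent Feature Extraction 10.7.3.1, background-subtracted but with no normalization across arrays, per the file headers and the submitters' processing notes. From these deposited intensities, log2 of the processed signal minus the 75th percentile of the array's non-control spots was computed. Spots of a probe were averaged, 54 of 55681 probes were dropped for an outlier spot, and the probe with the highest mean signal stood for its gene. Gene names were updated through a RefSeq table (GRCm38.p6) by accession for 27656 probes, by symbol for 3401 and by synonym for 321, and 24303 kept the name on the array. Exon and UTR placement of the probes is not analysed here. A gene was measured where it was well above background on both arrays. Against 1 dim array, the bound used the dim value or, if higher, the lowest value that any spot well above background had there. A share of all genes counts genes above background on at least 1 of the 2 arrays, and counts as past 2-fold those measured or bound to be so. Medians of the 10 genes include bounds. Those given in the text for the related lists and for all genes use measured genes only. The stress genes, related lists, markers and the naming rule (all 10 members; the 2 highest and 2 lowest measured genes of each list in AGO2-RIP over IgG-RIP in KO; the 5 nearest profiles) were chosen with earlier results of these data known. Calculations used Python 3.11.15, numpy 2.4.6, pandas 2.3.3 and, for normexp, limma 3.58.1 in R 4.3.3, and were tested on simulated data. Alternatives were median centring, quantile normalization, normexp with an offset of 50, a percentile over probes above background on all arrays, the median of a gene's probes, no filter on dim probes, and genes above background on all arrays only.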

Additional observations from a re-analysis of the deposited data

Results flagged for a closer look

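The IgG-RIP over input difference of Ddit4 had opposite signs in the genotypes, -3.91 in KO and 0.41 in WT. The KO value rests on an IgG-RIP spot close to background and ran from -4.39 to -2.34 over the alternatives, and the WT value from -0.17 to 1.17. KO minus WT was -4.32, the 10th lowest of 12552 genes measured on all 4 arrays, of which 14.7% were past 2-fold upward in KO and 8.90% downward. Ddit4 was chosen with AGO2-RIP over IgG-RIP known, which uses the same KO IgG-RIP spot, so nothing is read from this rank. The AGO2-RIP over IgG-RIP difference of Ppp1r15a also had opposite signs, 0.43 in KO and -0.34 in WT, with KO minus WT at 0.77. With 1 array per group these differences were not tested.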

How the results depend on the processing

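Of 595 values of the stress genes under 7 alternatives, 0 of those past 2-fold changed sign and 393 moved by less than the spot noise. Of 126 counts of genes past 2-fold, 105 stayed within 1.5 times. With median centring, 6 stress genes were lower in KO AGO2-RIP than in input and 9 in KO IgG-RIP than in input. Over all genes the same counts were 7124 and 7302, and 4499 and 4982 in the main setting. With quantile normalization, 2 stress genes were lower in WT AGO2-RIP than in input and 3 in WT IgG-RIP than in input. In KO input 0 were higher than in WT input. Over all genes these counts were 3603, 4951 and 159, and 4395, 6032 and 227 in the main setting. With normexp, 3 stress genes were lower in WT AGO2-RIP than in input, beside 2525 of all genes. Under the same correction 0 were higher and 1 lower in KO input than in WT input, beside 52 and 93. In KO IgG-RIP 2 were then lower than in WT IgG-RIP, beside 736. With the percentile over probes above background on all arrays, 1 stress gene was lower in KO AGO2-RIP and 2 in WT AGO2-RIP than in input. The counts over all genes were 2371 and 3058. In WT IgG-RIP 1 was then higher and 3 lower than in input, beside 7604 and 3271 of all genes. With genes above background on all arrays only, 3 of the 10 genes drop out. Of the rest, 3 in KO and 2 in WT were higher in AGO2-RIP over IgG-RIP, beside 1381 and 2906 of all genes. Against input, 1 was higher and 1 lower in KO AGO2-RIP, beside 1710 and 3566. In KO IgG-RIP 2 were lower than in input, beside 3859. Between KO and WT, 1, 0 and 2 were lower in KO in input, AGO2-RIP and IgG-RIP, beside 137, 1299 and 976. The cause of the other moves was not tested. Scaling moved the median of all genes, from -0.74 to 0.32 for KO AGO2-RIP over input and from -0.65 to 0.06 for WT AGO2-RIP over IgG-RIP, so the smaller differences have no settled sign. The share of higher among all genes past 2-fold in KO AGO2-RIP over input was 43.2% in the main setting, 21.2% with median centring and 72.3% with the percentile over bright probes. Counts over all genes for KO over WT in input were 227 higher and 493 lower, 52 and 93 with normexp, 1391 and 2169 with no filter, and 107 and 137 with genes above background on all arrays. No paired analysis was possible because each group has 1 array and the labels carry no replicate numbers, and no replicate could be left out. Dim spots limit every fold that has one as its reference.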
